A study of Mus musculus with 2 samples.

Results

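The 10 genes followed here in sorted brain microglia are early-response genes and regulators of MAP kinase signalling and mRNA decay: 4 dual-specificity phosphatases (Dusp1, Dusp2, Dusp5 and Dusp6), 3 ZFP36 family members (Zfp36, Zfp36l1 and Zfp36l2), the antiproliferative genes Btg1 and Btg2, and the immediate early gene Ier2. They were chosen by name as a functional group, with earlier results of these data known. They are 10 of the 55450 genes of the files. All 10 are among the 11332 genes that had at least 200 UMIs (unique molecular identifiers, 1 per captured RNA molecule) in microglia. The awake group was 3 adult male C57BL/6J mice injected with saline. The anesthesia group was 3 adult male C57BL/6J mice given 100 mg/kg sodium pentobarbital, a barbiturate. CD11b+ CD45low cells were sorted from collagenase-digested brain and captured with the 10x Genomics 3' kit, with 1 library per group. There is therefore no replicate and no test: "higher" and "lower" describe these libraries, every interval is a 95% interval for counting error only, and the effects of group, library and handling cannot be told apart.

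Dual-specificity phosphatases of this kind remove phosphate from both the threonine and the tyrosine of the MAP kinase activation loop, and since MAP kinase signalling induces many of them, they close a negative feedback loop. ZFP36 proteins bind AU-rich elements in the 3' untranslated regions (3'UTRs) of short-lived mRNAs and recruit the CCR4-NOT deadenylase, and BTG1 and BTG2 bind the catalytic subunits of the same deadenylase. In macrophages, Dusp1 and Zfp36 are known as brakes on inflammatory cytokine output.

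MAP kinase and cAMP signals are known to act on early-response genes through short promoter elements, and the promoters of the genes at both ends of the range between the libraries are shown for that reason. Promoter windows of RefSeq (250 bases before to 50 after the start, build GRCm38.p6) were used. They were matched for 8 of the 10 genes, all but Ier2 and Zfp36l2. Below are those of the pair with the lowest ratio of anesthesia to awake among these 8, Dusp1 and Btg2, and of the pair with the highest, Dusp2 and Dusp5. Capitals mark the cAMP response element (CRE) core TGACG on either strand, which reads CGTCA on the other strand and is TGACGTCA where 2 cores overlap, and the CArG box, the site of serum response factor.
Dusp1, chr17:26508423-26508722, minus strand: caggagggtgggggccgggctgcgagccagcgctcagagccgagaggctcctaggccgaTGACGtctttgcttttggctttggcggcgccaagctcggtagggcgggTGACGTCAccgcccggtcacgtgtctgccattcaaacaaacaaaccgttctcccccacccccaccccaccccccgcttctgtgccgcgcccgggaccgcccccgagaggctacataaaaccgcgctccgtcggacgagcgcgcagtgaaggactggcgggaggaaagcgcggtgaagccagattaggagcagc
Btg2, chr1:134079106-134079405, minus strand: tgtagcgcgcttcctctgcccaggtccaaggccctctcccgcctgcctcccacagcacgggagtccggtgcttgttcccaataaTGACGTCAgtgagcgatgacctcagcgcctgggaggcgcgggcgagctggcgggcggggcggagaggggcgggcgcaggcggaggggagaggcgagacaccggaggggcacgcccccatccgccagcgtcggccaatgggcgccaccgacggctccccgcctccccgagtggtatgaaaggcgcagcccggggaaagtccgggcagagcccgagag
Dusp2, chr2:127335909-127336208, plus strand: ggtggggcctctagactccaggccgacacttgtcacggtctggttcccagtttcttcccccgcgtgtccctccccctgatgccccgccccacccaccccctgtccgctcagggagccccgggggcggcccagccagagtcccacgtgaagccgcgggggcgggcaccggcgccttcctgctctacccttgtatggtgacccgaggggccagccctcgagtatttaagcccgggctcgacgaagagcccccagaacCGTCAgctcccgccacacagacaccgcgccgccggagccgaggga
Dusp5, chr19:53528895-53529194, plus strand: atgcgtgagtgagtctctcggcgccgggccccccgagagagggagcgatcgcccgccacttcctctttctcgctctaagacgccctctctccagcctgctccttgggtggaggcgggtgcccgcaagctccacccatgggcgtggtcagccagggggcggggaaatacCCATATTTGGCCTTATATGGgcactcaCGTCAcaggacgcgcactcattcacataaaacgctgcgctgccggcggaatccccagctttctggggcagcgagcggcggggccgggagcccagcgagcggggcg

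The full palindrome TGACGTCA was found in Dusp1, 143 bases before the start (first base at -143), and in Btg2, at -166, and in none of the other 6. It is held by 1.79% of 32851 promoter windows of the same length. The TGACG core was in 5 of the 8 (Dusp1, Btg2, Btg1, Dusp2 and Dusp5), against 20.8% of all windows. Dusp5 had 2 adjoining CArG boxes, at -82 and -72, and Zfp36 had 1 at -58, against 1.63% of all windows. The E-box CACGTG was in Dusp1 and Dusp2, against 7.15%, the GC box GGGCGG in 6 of the 8, against 35.7%, and the NF-kB consensus in 0 of the 8, against 4.51%. These are matches of letters in a fixed window, searched on both strands, and not evidence of binding.

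The ZFP36 family's own binding motif is the other element. The heptamer TATTTAT was present in the 3'UTR of 6 of the 10 genes, against 28.8% of the 9908 measured genes with an annotated 3'UTR. Dusp1, Zfp36, Zfp36l1 and Zfp36l2 had 3 copies each, which 3.66% of those genes reach or pass, and Dusp2 and Btg2 had 1. Dusp5, Dusp6, Btg1 and Ier2 had 0. One heptamer of each gene, in capitals with its flanks, was as follows on GRCm38 (the transcript sequence, with T for U).
Dusp1, chr17:26506160-26506186, minus strand: agctggtcctTATTTATttaacacccc
Zfp36, chr7:28376967-28376993, minus strand: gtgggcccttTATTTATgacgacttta
Zfp36l1, chr12:80108423-80108449, minus strand: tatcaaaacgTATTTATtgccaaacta
Zfp36l2, chr17:84184915-84184941, minus strand: ctatttaactTATTTATtatcttgtga
Dusp2, chr2:127338305-127338331, plus strand: cagcactttaTATTTATatagaacatt
Btg2, chr1:134077250-134077276, minus strand: aatgaagagcTATTTATacatgttttt
The heptamer count did not order the genes by their ratio between libraries: genes with 3 copies lay between -0.73 (Dusp1) and 0.07 (Zfp36l1) on the log2 scale, and genes with 0 between -0.66 (Ier2) and 0.33 (Dusp5).

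The awake library held 53262885 UMIs in 8600 barcodes and the anesthesia library 61139016 in 9412, and 14 barcodes occurred in both. Microglia-like cells were 7225 awake and 8287 anesthesia cells, with a median of 5950 and 5427 UMIs and a median mitochondrial share of 1.32% and 2.14%. Microglial identity was plain in both: P2ry12 stood at 1806 and 1704 counts per 1000000 UMIs (CPM) and Cx3cr1 at 2806 and 2911. Not every microglial marker was level. Tmem119 stood at 1480 CPM awake and 1138 CPM under anesthesia (log2 ratio -0.38). The 10 microglial markers summed to 23849 and 21092.5 CPM (-0.18). The libraries lay in different clusters. Of the microglia-like clusters, cluster 0 held 6535 awake and 250 anesthesia cells, cluster 1 held 150 and 5249, cluster 2 held 277 and 2673, and cluster 4, led by Clec7a, Lgals3, Lpl and Apoe, held 263 and 115. Differences over all microglia-like cells are thus mainly cluster 0 against clusters 1 and 2, and ratios within clusters are given beside them. In clusters 0, 1 and 2 the ratios within clusters set many cells of 1 library against few of the other. Whether those few cells stand for their library was not tested. Summed markers of other cell classes in these cells ranged from 2.70 CPM (NK cell) to 837 CPM (oligodendrocyte) in the awake and from 3.80 to 742 CPM in the anesthesia library, with the endothelial list at 484 and 334 CPM. The part of these markers, of depth and of mitochondrial share in the results below was not tested.

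All 10 genes were well expressed in microglia, at percentile 76.7 (Dusp5) to 99.7 (Btg2) of the measured genes in the awake library, and in most of them the 2 libraries differed by less than 1.5-fold. Of the 10, 3 stood at least 1.5-fold lower in anesthesia (Btg2, Dusp1 and Ier2) and 0 at least 1.5-fold higher. Over all 11332 measured genes 11.8% were at least 1.5-fold lower and 13.3% at least 1.5-fold higher. The median log2 ratio of the 10 was -0.18, against -0.01 over all measured genes. As 3' tags count molecules and do not scale with transcript length, levels can be ordered within a library. In the awake library the order from high to low was Btg2, Ier2, Zfp36, Btg1, Dusp1, Zfp36l1, Dusp2, Zfp36l2, Dusp6 and Dusp5. In the anesthesia library it was the same except that Zfp36l1 stood above Dusp1. Neighbours in the awake order did not overlap in their counting intervals, and in the anesthesia library Ier2 and Zfp36 overlapped (1127 to 1145 and 1117 to 1135 CPM).

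**Figure D1:**
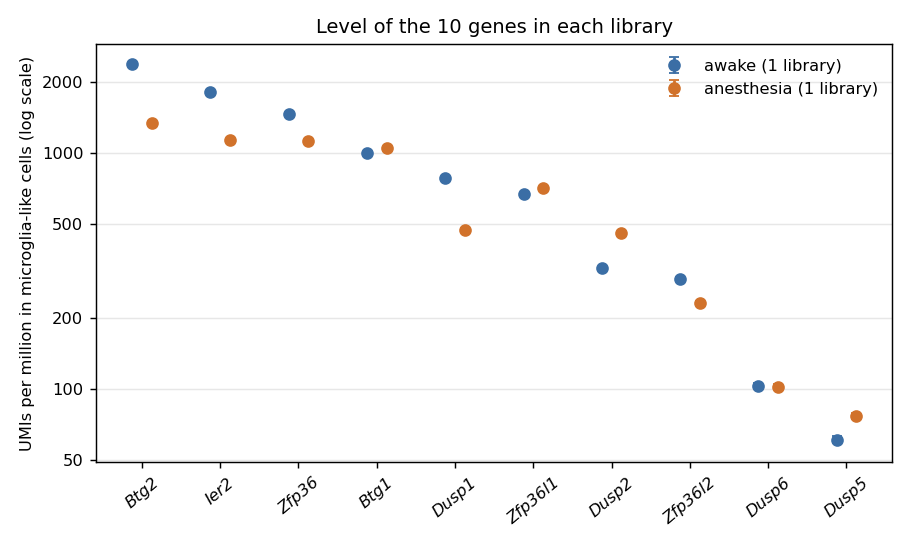
Counts per 1000000 UMIs in microglia-like cells (log axis) for each of the 10 genes in the awake and the anesthesia library, 1 library each, with exact Poisson 95% intervals that are mostly smaller than the points. Btg2, Ier2, Zfp36, Zfp36l2 and Dusp1 were lower in the anesthesia library, Dusp2 and Dusp5 higher, and Dusp6 lay at 103 and 102.

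Among the phosphatases, the nuclear enzyme Dusp1 (MKP-1, gene at chr17:26505590-26562128 of GRCm38, minus strand), which acts mainly on p38 and JNK, was lower in the anesthesia library. This annotated span reaches upstream of the RefSeq promoter window shown above, and the representative Dusp1 transcript has 4 exons and 1990 bases. Awake microglia held 36074 Dusp1 UMIs (780 CPM, 772 to 789) and anesthesia microglia 26229 (472 CPM, 466 to 478), which gave a log2 ratio of -0.73 (-0.75 to -0.70). Dusp2 (PAC-1, chr2:127336159-127338376, plus strand), a nuclear phosphatase of activated immune cells, went the other way. Its level was 324 CPM (319 to 330) awake against 457 CPM (451 to 463) under anesthesia, which gave 0.49 (0.47 to 0.52). The anesthesia library therefore held close levels of Dusp1 and Dusp2, while the awake library held more Dusp1.

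The ERK-directed phosphatases were the lowest of the 10 and differed least among the phosphatases. Dusp5 (chr19:53529109-53542431, plus strand), the nuclear ERK phosphatase, stood at 61.0 CPM (58.7 to 63.3) awake against 76.8 CPM (74.5 to 79.2) under anesthesia, which gave 0.33 (0.26 to 0.40). Dusp6 (chr10:99263231-99267489, plus strand), the cytoplasmic ERK phosphatase and a common readout of ERK activity, had 103 CPM (100.4 to 106) and 102 CPM (99.5 to 105). Its log2 ratio was -0.02 (-0.07 to 0.04), so a difference was not detectable at this depth, and the interval holds nothing beyond 0.07 in size.

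Within clusters, where 1 of the libraries held few cells of clusters 0, 1 and 2, Dusp1 stayed lower in anesthesia and Dusp2 did not stay higher. The within-cluster log2 ratio of Dusp1 was -0.76, and it was lower in anesthesia in each microglia-like cluster, with 784 against 483 CPM in cluster 0, 783 against 513 in cluster 1, 696 against 343 in cluster 2 and 750 against 426 in cluster 4. That of Dusp2 was -0.14, of the other sign than over all cells. Dusp2 stood at 317 CPM in awake and 351 in anesthesia cells of cluster 0, at 728 and 544 in cluster 1, at 197 and 193 in cluster 2 and at 353 and 367 in cluster 4. Cluster 1, which held most anesthesia cells, had the highest Dusp2 of the 4 clusters in both libraries, and Dusp2 was not among the genes used for clustering. Dusp5 was at 0.13 within clusters, and Dusp6 was at 0.04. Counts of Dusp1, Dusp5, Zfp36, Zfp36l1 and Zfp36l2 come from loci with an exon of another gene on the opposite strand, and none of the 10 shares an exon with another gene on its own strand.

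**Figure D2:**
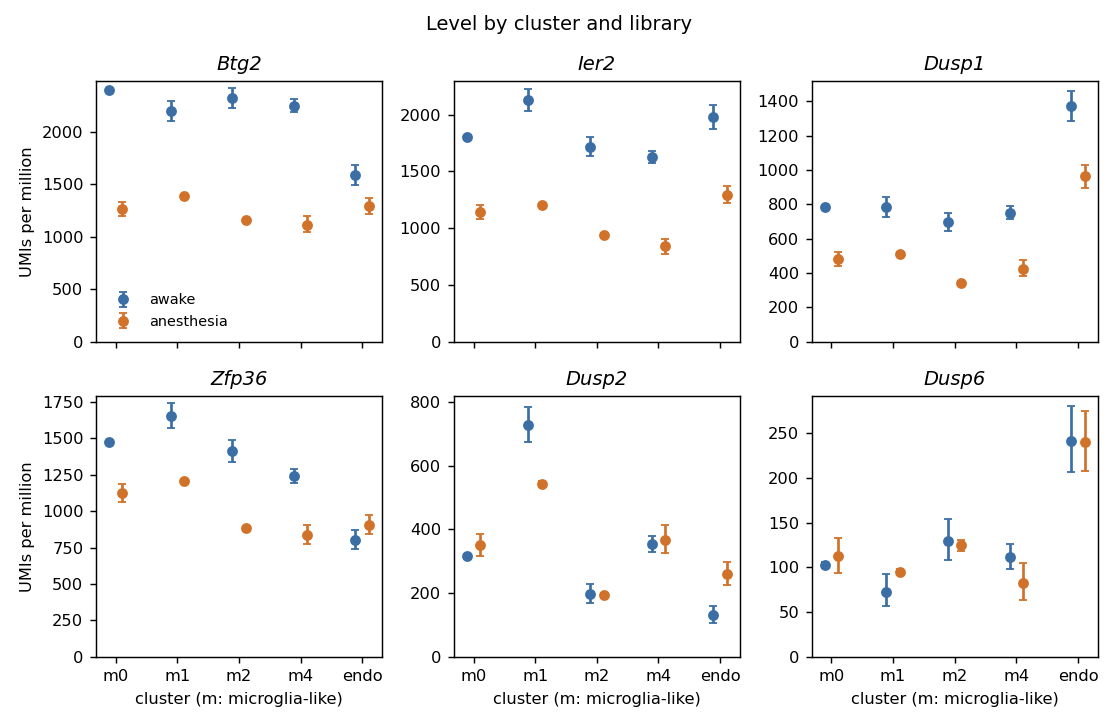
Counts per 1000000 UMIs of 6 of the genes in microglia-like clusters 0, 1, 2 and 4 (m0 to m4) and in endothelial-like cells (endo), awake and anesthesia, with exact Poisson 95% intervals. Btg2, Ier2, Dusp1 and Zfp36 were lower in anesthesia in each of the 4 microglia-like clusters, and Dusp2 varied more between clusters than between libraries.

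In the ZFP36 family, 2 members were lower in the anesthesia library and the other was level, and none differed by 1.5-fold. Zfp36 (tristetraprolin, chr7:28376784-28380253, minus strand), which destabilises Tnf and other cytokine mRNAs, stood at 1464 CPM (1453 to 1475) awake against 1126 CPM (1117 to 1135) under anesthesia, which gave a log2 ratio of -0.38 (-0.39 to -0.36). Zfp36l2 (chr17:84183931-84187947, minus strand) stood at 293 CPM (288 to 298) against 231 CPM (227 to 235), and its ratio was -0.34 (-0.38 to -0.31). Zfp36l1 (chr12:80107754-80113013, minus strand), known with Zfp36l2 for roles in lymphocyte development, stood at 671 CPM (663 to 678) against 706 CPM (699 to 713), and its ratio was 0.07 (0.05 to 0.10). Zfp36 made up most of the family's UMIs in both libraries. Within clusters the log2 ratios were -0.50 for Zfp36, -0.33 for Zfp36l2 and 0.00 for Zfp36l1.

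The largest difference of the 10 was that of Btg2. Btg2 (chr1:134075170-134079120, minus strand), a p53- and growth-factor-induced antiproliferative gene, was counted 110230 times in awake microglia (2385 CPM, 2371 to 2399) and 73972 times in anesthesia microglia (1332 CPM, 1322 to 1341). Its log2 ratio was -0.84 (-0.85 to -0.83), and -0.89 within clusters, with 2397 against 1261 CPM in cluster 0 and 2201 against 1390 in cluster 1. Btg1 (chr10:96617006-96622809, plus strand), its paralog with the same deadenylase partners, stood at 996 CPM (987 to 1005) against 1043 CPM (1034 to 1051), a ratio of 0.07 (0.05 to 0.08) and 0.04 within clusters. The gap between the paralogs was therefore wider in awake than in anesthesia microglia, with Btg2 above Btg1 in both.

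Ier2 (chr8:84661331-84662852, minus strand), a nuclear protein gene of a single exon that is induced within minutes of stimulation, followed Dusp1 and Btg2. Its 83177 UMIs in awake microglia (1799 CPM, 1787 to 1812) compared with 63105 in anesthesia microglia (1136 CPM, 1127 to 1145), which gave -0.66 (-0.68 to -0.65), and -0.80 within clusters. With the trend of the ratio on gene GC content and transcript length removed over all 11332 genes, Ier2 moved to -0.40 and Dusp1 to -0.58, both short of 1.5-fold, and Dusp2 moved to 0.74, past it. Btg2 was at -0.78 under that correction.

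Cluster by cluster, the 4 genes with the lowest ratios of anesthesia to awake kept that order of libraries in every microglia-like cluster. Zfp36 stood at 1473 CPM awake against 1125 under anesthesia in cluster 0, at 1654 against 1207 in cluster 1, at 1412 against 883 in cluster 2 and at 1240 against 839 in cluster 4. Ier2 stood at 1803 against 1141, 2127 against 1201, 1717 against 944 and 1626 against 840 in the same clusters, and Btg2 at 2319 against 1164 in cluster 2 and 2249 against 1117 in cluster 4. The awake levels of all 3 exceeded the anesthesia levels in each cluster with no overlap of counting intervals. The genes near a ratio of 0 had no common direction: the log2 ratio by cluster ran from -0.13 to 0.25 for Zfp36l1, from -0.06 to 0.13 for Btg1 and from -0.44 to 0.39 for Dusp6.

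The unnamed clusters, which were kept out of the microglial sums, gave the same order of libraries for these genes. Dusp2 had the sign of its ratio over all microglia-like cells (0.49) there, not that of its within-cluster ratio (-0.14). Cluster 3 (639 awake and 276 anesthesia cells) is led by Cpe, Slc1a2 and other genes of astrocytes, oligodendrocytes and vessels, and cluster 5 (184 and 172 cells) by Pf4, Mrc1 and interferon-induced genes. Both carried microglial RNA near the level of the microglia-like cells. The median level of 7 microglial genes was 99.4% awake and 98.6% under anesthesia of that level in cluster 3. In cluster 5 it was 81.4% and 87.9%, so neither cluster is a population free of microglia. Btg2 stood at 2525 CPM awake against 1167 under anesthesia in cluster 3 and at 2348 against 1353 in cluster 5. Dusp1 stood at 680 against 404 and at 892 against 556 in these clusters, and Ier2 at 1664 against 980 and at 1720 against 1104. Dusp2 was higher under anesthesia in both, with 221 against 338 CPM in cluster 3 and 236 against 420 in cluster 5, log2 ratios of 0.61 (0.46 to 0.76) and 0.83 (0.64 to 1.02). These are larger than the Dusp2 ratio of any of the 4 microglia-like clusters, where the highest was 0.15 in cluster 0.

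**Figure D3:**
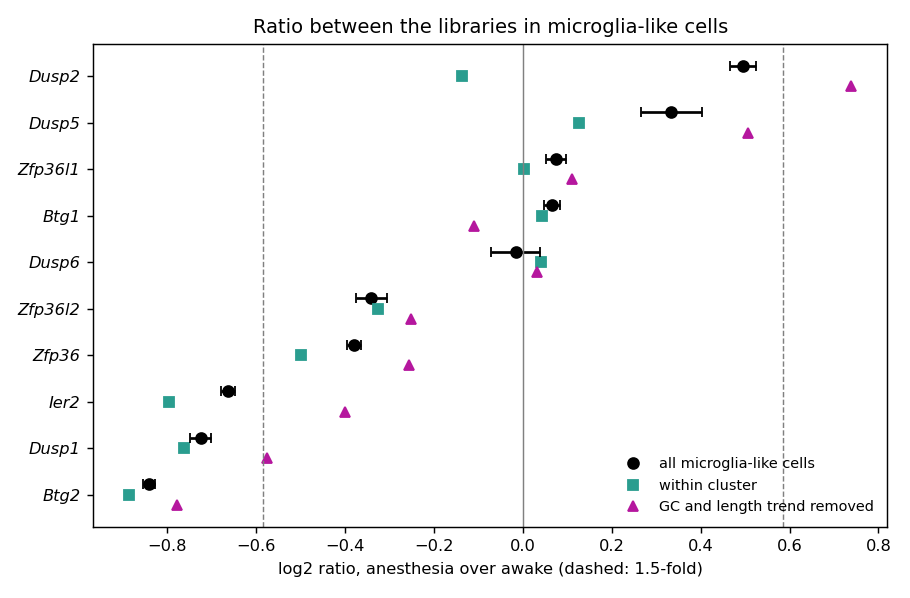
Log2 ratio of anesthesia over awake for the 10 genes over all microglia-like cells (circles, with 95% counting intervals), within clusters (squares) and with the GC content and length trend removed (triangles). Btg2 lay beyond 1.5-fold (dashed) in all 3, and Dusp2 ranged from -0.14 to 0.74.

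The same differences were seen cell by cell. Each cell was thinned to 2000 UMIs, and 183 awake and 304 anesthesia cells were too shallow for it. Btg2 was then found in 96.3% (95.8 to 96.7) of the awake cells and in 88.7% (87.9 to 89.3) of the anesthesia cells. Ier2 was found in 91.6% and 82.5%, Dusp1 in 66.6% (65.4 to 67.7) and 51.2% (50.1 to 52.3) and Dusp2 in 35.4% (34.3 to 36.6) and 46.7% (45.6 to 47.8). Without thinning, the shares were 99.6% and 97.7% for Btg2, 98.4% and 95.8% for Ier2, 87.8% and 75.4% for Dusp1 and 57.6% and 69.4% for Dusp2. Zfp36 was in 88.5% and 83.0% of thinned cells, Zfp36l2 in 41.9% and 34.6%, Zfp36l1 in 65.7% and 68.7%, Btg1 in 82.7% and 84.5%, Dusp5 in 10.4% and 13.4% and Dusp6 in 17.4% and 17.4%. P2ry12, a microglial gene, was in 94.7% of both, and in 27.4% and 36.6% of thinned endothelial-like cells (median depth 5507 and 4535 UMIs), which measures how far microglial RNA reaches cells that should lack it.

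Btg2 counts were lower along the whole distribution. The median thinned count per cell was 4 awake and 2 under anesthesia for Btg2, 3 and 2 for Ier2 and 3 and 2 for Zfp36. The 90th percentile was 9 and 5 for Btg2, 7 and 5 for Ier2 and 4 and 3 for Dusp1. The variance over the mean, which is 1 for pure counting, was 2.28 and 1.59 for Btg2, 2.20 and 1.70 for Ier2, 2.16 and 1.79 for Dusp1 and 2.04 and 2.10 for Dusp2. It was 1.28 and 1.27 for Btg1. This ratio rises with the mean for the same relative spread between cells, so no difference in spread between the libraries is read from it.

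**Figure D4:**
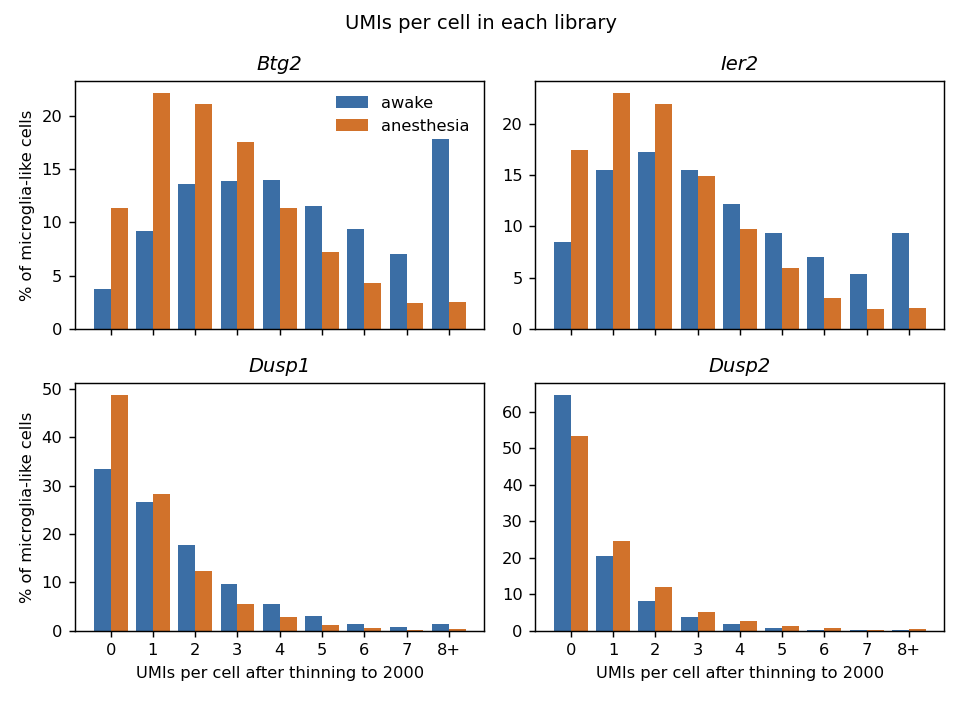
Share of microglia-like cells (%) with each number of UMIs after thinning to 2000, for Btg2, Ier2, Dusp1 and Dusp2, awake and anesthesia. Cells with 0 Dusp1 UMIs were 33.4% of awake and 48.8% of anesthesia cells, and cells with 8 or more Btg2 UMIs were 17.85% and 2.54%.

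Across cells of 1 library the genes were only loosely tied. Over the 45 pairs, Pearson's r of log2(thinned count + 1) had a median of 0.055 in both libraries (7042 and 7983 cells), from -0.05 to 0.23 in the awake and from -0.06 to 0.23 in the anesthesia library. The highest pair in both libraries was Zfp36 with Ier2, at 0.23 in each. Next came Btg2 with Ier2 in the awake library (0.23, and 0.17 in anesthesia) and Dusp1 with Zfp36 in the anesthesia library (0.20, and 0.19 awake). With cells thinned to 4000 UMIs the median was 0.09 awake and 0.08 in anesthesia. Cells share depth by construction here, and such low values in sparse counts are no finding. The genes most like each one, by the lower of the 2 within-library correlations over 2537 candidate genes, came from a set of 7: Fos, Fosb, Jun, Junb, Egr1, Gadd45b and Nfkbia. They were Fos (0.30), Jun and Nfkbia for Dusp1, Gadd45b (0.31), Nfkbia and Junb for Dusp2, Junb (0.29), Egr1 and Nfkbia for Zfp36, Egr1 (0.34), Junb and Nfkbia for Ier2, and Junb (0.23), Egr1 and Jun for Btg2. For Dusp6, Zfp36l1, Zfp36l2 and Btg1 the highest was between 0.13 (Jun with Zfp36l2) and 0.16 (Egr1 with Zfp36l1), and for Dusp5 it was 0.05.

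Outside microglia, the sort also held 113 awake and 123 anesthesia endothelial-like cells, led by Cldn5, with other levels of the phosphatases. Dusp1 had 1372 CPM (1287 to 1462) in awake and 962 CPM (897 to 1031) in anesthesia endothelial-like cells, a factor of 1.76 and 2.04 above microglia of the same library. Dusp6 had 241 and 240 CPM, a factor of 2.34 and 2.35 above microglia. Dusp2 had 130 and 260 CPM, Zfp36l2 117 and 176, and Btg1 517 and 732, all below microglia. Ier2 had 1979 and 1295 CPM, a log2 ratio of -0.61 (-0.73 to -0.50), and Btg2 1589 and 1295 CPM, a log2 ratio of -0.30 (-0.42 to -0.17). Of the 9 genes with at least 200 UMIs there (Dusp5 had fewer), 1 was at least 1.5-fold lower (Ier2) and 2 higher (Dusp2 and Zfp36l2), against 15.9% and 19.7% of the 1299 genes measured in these cells.

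Microglial RNA in these cells moved with the library. The median level of 7 microglial genes in endothelial-like cells was 18.6% (15.4 to 20.2 over the genes) of their microglial level in awake cells and 42.4% (38.6 to 44.6) in anesthesia cells. In both libraries the lower bound of all 10 genes lay above the level that the highest of the 7 shares would bring. With the median share taken off, the log2 ratio in endothelial-like cells became -0.52 for Ier2, 0.43 for Dusp2, -0.19 for Dusp1, -0.15 for Btg2 and 0.82 for Zfp36l2, so Ier2 and Dusp2 lost their 1.5-fold difference. In choroid plexus or ependymal-like cells (41 and 83 cells), where the median share was 35.7% and 45.5% and the highest 40.3% and 52.2%, the lower bound of Dusp1, Zfp36l1 and Zfp36l2 lay above the level of the highest share in both libraries, and that of the other 7 genes did not in at least 1 of them.

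Other genes of the same pathways were read from lists chosen with earlier results of these data known, and several signal-limiting genes among them were higher in anesthesia. Their counts are to be read against all 11332 measured genes, of which 13.3% were at least 1.5-fold higher and 11.8% lower over all microglia-like cells, and 10.5% higher and 12.6% lower within clusters. Over the 5 measured other MAP kinase phosphatases, the median log2 ratio was 0.96, and 4 were at least 1.5-fold higher in anesthesia and 0 lower. They were Dusp16 (60.9 and 136 CPM, 1.16), a JNK and p38 phosphatase, Dusp4 (2.03 and 4.43 CPM, 1.12), Dusp10 (0.96) and Dusp8 (0.88). Within clusters, 2 were past 1.5-fold, Dusp16 at 0.76 and Dusp10 at 0.71. Of 6 measured genes in a list drawn up for inhibitors of receptor-to-ERK signalling, 3 were higher and 0 lower, with a median of 0.67. The list also held Peak1 (0.24), which is not an established inhibitor. The 3 were Spred2 (20.1 and 54.5 CPM, 1.44), Spred3 (1.43) and Errfi1 (0.79). Of these, Spred2 (1.51) and Spred3 (0.72) stayed past 1.5-fold within clusters. The MAP kinase cascade itself had a median of 0.01 over 28 genes, with 2 higher (Mapk6 at 0.82 and Mapk9 at 0.71) and 3 lower (Map2k6 at -0.80, Map3k3 at -0.66 and Map2k1 at -0.65). Within clusters, 1 cascade gene was higher and 3 were lower. Of 12 atypical dual-specificity phosphatases, 1 was higher (Styx, 0.78) and 3 lower (Dusp12, -0.87, Dusp18, -0.79, and Dusp23, -0.78), with a median of -0.09. Of these 12, 0 were higher and 1 was lower within clusters.

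Partners of ZFP36 and BTG proteins in mRNA decay differed in both directions. Of 18 measured deadenylation factors, 3 were higher, near the share over all genes, and 0 lower, with a median of 0.13. Of the 3, 2 belong to the BTG/TOB family, Btg3 (44.3 and 93.2 CPM, 1.07) and Tob1 (131 and 252 CPM, 0.94), and the third was the CCR4-NOT subunit Cnot3 (0.65). All 3 were past 1.5-fold within clusters as well (0.97, 0.61 and 0.85). Btg3 and Tob1 thus lay opposite to Btg2. Of 11 decapping and 5' decay factors, 4 were higher (Dcp1a at 0.77, the helicase Ddx6 at 0.75, Patl1 at 0.75 and the exonuclease Xrn1 at 0.67) and 2 lower (Lsm1 at -0.72 and Edc3 at -0.68), with a median of 0.19. Within clusters only 1 of the 11 was higher and 1 lower. Of 15 other RNA-binding regulators of short-lived mRNAs, 3 were higher (Zc3h12c at 1.64, Rc3h1 at 0.70 and Rc3h2 at 0.68) and 1 lower (Tia1 at -0.70), with a median of 0.05. Of the same 15, 2 were higher and 1 lower within clusters.

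Many mRNAs known as ZFP36 targets were higher in the anesthesia library over all microglia-like cells, and 1 was within clusters. Of 18 measured, 10 were at least 1.5-fold higher in anesthesia and 0 lower, with a median of 0.72. The growth factor Vegfa had 4.33 and 17.3 CPM (log2 ratio 1.999), the cyclooxygenase Ptgs2 13.8 and 35.9 CPM (1.38), the chemokine Ccl4 2142 and 4970 CPM (1.21) and Il1b 79.5 and 180 CPM (1.18). Within clusters the median was 0.12 and Vegfa alone, at 1.11, stayed past 1.5-fold. Of 38 other immediate early genes, which include the targets Ier3 and Socs3, 4 were higher and 7 lower, with a median of -0.03, and within clusters 2 and 6. The lowest was Klf2 (1082 and 331 CPM, -1.71), and Jund was at -1.04, while Nr4a3 (1.74) and Klf10 (1.52) were highest. Fos, induced with Dusp1 and Ier2 by many stimuli, had 2019 and 1416 CPM (-0.51) and Egr1 3522 and 3640 CPM (0.05).

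**Figure D5:**
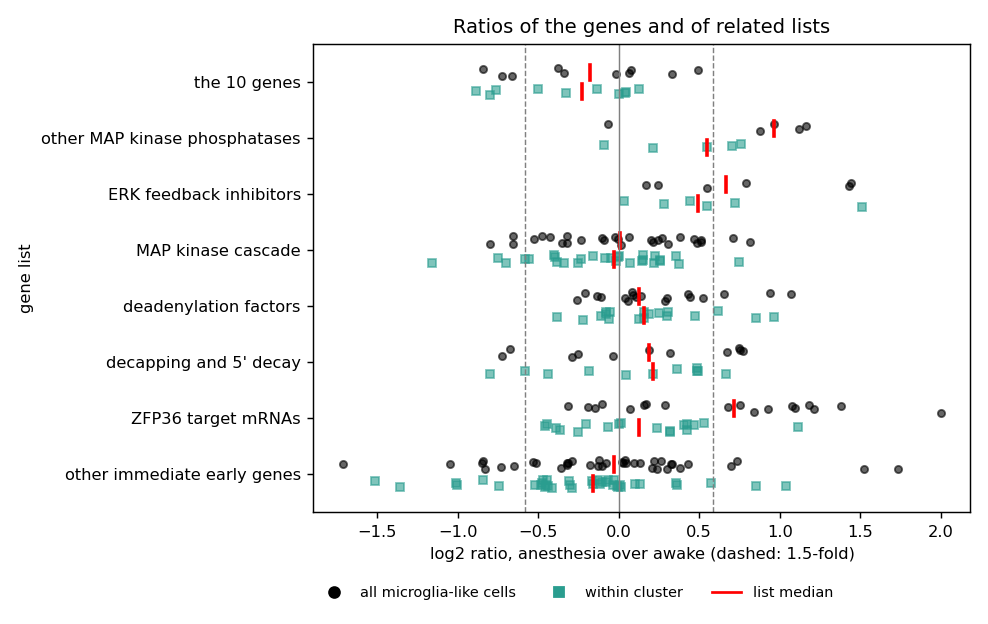
Log2 ratio of anesthesia over awake for each measured gene of 8 lists, over all microglia-like cells (circles) and within clusters (squares), with list medians in red. The list of ZFP36 target mRNAs had a median of 0.72 over all cells and 0.12 within clusters, and the 10 genes -0.18 and -0.23.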

How the data were processed

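The deposited values are raw UMI counts per gene and barcode. Reads were handled with bcl2fastq and Cell Ranger 3.1.0 on GRCm38, per the submitters' processing notes, whereas Cell Ranger 4.0.0 is named per the file headers, and the difference could not be settled. The sources used here do not give pooling of the 3 mice per group or the duration of anesthesia.

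Cells were kept from 500 genes, 1000 UMIs and up to 10% mitochondrial UMIs (8223 awake, 8944 anesthesia) and clustered with scanpy 1.11.5 and leidenalg 0.10.2 (2000 variable genes, 30 components, 15 neighbours, resolution 0.6). Variable genes left out the 10 genes and the immediate early, ZFP36 target, cytokine and heat shock lists. Cluster names rest on 10 markers per class. The naming rule was tightened after the data were seen, which left cluster 3 unnamed. Unnamed clusters 3 and 5 held 10.0% of awake and 5.01% of anesthesia cells. Scrublet called 0 and 1 doublets, so it did not work, and no cell was removed.

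UMIs of microglia-like cells were summed per library and scaled to counts per 1000000 (CPM). Log2 ratios are anesthesia over awake, with exact conditional binomial intervals. CPM have exact Poisson and shares exact Clopper-Pearson intervals. Within-cluster ratios weight the clusters by their totals. A gene counted as measured from 200 UMIs in both libraries together. Beside the 10 genes, those at least 1.5-fold apart were named, up to 4 per list, with the 3 most alike genes, P2ry12, Cx3cr1 and Fos. Map2k1, Xrn1, Edc3 and Egr1 were named after their values were seen. The members and lists were chosen with earlier results of these data known. All 55450 gene identifiers matched GENCODE M21. The scripts were tested on simulated data.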

Additional observations from a re-analysis of the deposited data

Results flagged for a closer look

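Zfp36 and Zfp36l2 had ratios of opposite sign in the endothelial-like and the microglia-like cells. The log2 ratio of anesthesia over awake for Zfp36 was 0.17 (0.01 to 0.33) in endothelial-like cells (113 awake, 123 anesthesia) and -0.38 in microglia-like cells. For Zfp36l2 it was 0.59 (0.19 to 0.999) and -0.34. With 1 library per group the difference between the cell classes was not tested. The share of microglial RNA in the endothelial-like cells was 18.6% for the awake library and 42.4% for the anesthesia library. With that share taken off, the log2 ratios were 0.19 for Zfp36 and 0.82 for Zfp36l2.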

How the results depend on the processing

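The count of genes at least 1.5-fold lower was 1 in place of 3 with the GC content and length trend removed and 0 with a 2-fold threshold, and the count at least 1.5-fold higher was 1 in place of 0 with that trend removed. The median log2 ratio, -0.18, was -0.23 with the mean over cells of each cell's CPM and -0.23 within clusters. Over 13 alternatives, Btg2 ranged from -0.89 to -0.78, Dusp1 from -0.76 to -0.58, Ier2 from -0.80 to -0.40 and Zfp36 from -0.50 to -0.26. Dusp2 ranged from -0.14 to 0.74 and was positive in 12 of the 13. Dusp6 (-0.08 to 0.04) and Btg1 (-0.11 to 0.11) changed sign around 0. The median correlation between the genes across cells, 0.055 in both libraries, was 0.0903 awake and 0.0805 in anesthesia with cells thinned to 4000 UMIs. The following 3 alternatives were chosen after seeing the data: leaving out the barcodes found in both libraries, which gave -0.84 for Btg2 and 0.49 for Dusp2, taking microglia-like clusters at resolution 1.0, and taking the microglial share off endothelial-like levels. No paired analysis was possible because each group has 1 library. Leaving out a replicate was not possible for the same reason. Classes under 20 cells in a library, such as neutrophil-like cells with 3 in anesthesia, are too shallow for a statement.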

Other observations

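The median ratio between the libraries rose with the number of ZFP36 family motifs over all genes, although the ratios of the 10 were not so ordered. Among the 9908 measured genes with an annotated 3'UTR, the median log2 ratio was -0.10 for 7058 genes with 0 copies of TATTTAT, 0.06 for 1856 with 1, 0.17 for 631 with 2 and 0.19 for 363 with 3 or more. The share at least 1.5-fold higher in anesthesia was 9.17%, 13.3%, 17.1% and 20.4%, and the share at least 1.5-fold lower 13.5%, 9.11%, 5.86% and 6.89%. Genes with more copies have longer 3'UTRs, with medians of 761.5, 1730.5, 2511 and 3290 bases, and a higher AT content in them, with medians of 54.2%, 57.1%, 59.5% and 59.8%. When genes were split by 3'UTR length into a short, a middle and a long class of equal size, those with 1 or more copies had a median of -0.14 against -0.19 for those with 0 in the short class, 0.03 against -0.07 in the middle class and 0.18 against 0.07 in the long class. AT content still differed there, at 56.8% against 53.9%, 57.8% against 54.3% and 58.3% against 54.8%, and its part in these values was not tested. Genes are not replicates, and this is a description of 1 library per group.

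In border-associated macrophage-like cells, which separated only in the finer clustering (97 awake and 62 anesthesia cells, led by Cybb, F13a1 and Ms4a7), Dusp2 stood at 124 CPM (103 to 149) awake against 361 CPM (325 to 399) under anesthesia, a log2 ratio of 1.53 (1.23 to 1.85). Dusp1 had 835 and 558 CPM, a log2 ratio of -0.58 (-0.74 to -0.42). The share of microglial RNA in these cells was 51.8% for the awake library and 83.1% for the anesthesia library. The microglial gene P2ry12 stood at 819 CPM awake and 1410 CPM under anesthesia in them (log2 ratio 0.78). Microglia-like cells held 324 and 457 CPM of Dusp2, more than these cells in either library. The part of microglial RNA in these values was not tested, so no difference of the macrophages themselves is read from them.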
